A study of Mus musculus with 13 samples.

Results

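The D-type cyclins (Ccnd1, Ccnd2 and Ccnd3) and their kinases Cdk4 and Cdk6 were followed in mouse medulloblastoma and in normal tissue of the developing hindbrain. These 5 genes, of 18193 with a symbol of their own on the array, were read by every probe set that the platform annotation gives 1 of these symbols, 19 of 45037 that are not controls. Ccnd2 has 7 of them and each of the other 4 genes has 3, and 0 carry a second symbol. A probe set is a group of short probes against 1 transcript, so probe sets of a gene are repeated readings of the same RNA and not replicates.

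Medulloblastoma is a malignant childhood tumour type of the cerebellum and brainstem. The tumour group held 6 primary medulloblastomas of genotype Ptch1(+/-). The normal groups were wild-type: 3 samples of granule neuron precursors from the P7 cerebellum (GNPC) and 4 of the dorsal brainstem at E16.5 (DBS), where P counts days after birth and E days of gestation. All were untreated, each came from a different mouse, and each was read on 1 array. Neither the age of the tumour mice nor how the GNPC were isolated is given in the sources used here. The normal tissues also differ in age, which cannot be told apart from tissue. The comparisons asked how tumours from a mouse with an altered Ptch1, the receptor that restrains hedgehog signalling, differ from 2 normal hindbrain tissues. Tumours with altered Ctnnb1 were not analysed here.

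D-type cyclins are the regulatory subunits that bind and switch on Cdk4 and Cdk6. The complexes phosphorylate the retinoblastoma protein, which releases E2F factors and lets a cell pass from the first gap phase into DNA synthesis. Granule neuron precursors on the surface of the growing cerebellum divide in response to Sonic hedgehog, and D-type cyclins are known effectors of that response, partly through the transcription factor Mycn. INK4 proteins inhibit the kinases directly.

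Promoter sequences of Cdk4, Cdk6 and Ccnd3 were found in the RefSeq table (GRCm38.p6), and those of both kinases are shown because the kinases were higher in tumours than in DBS by different amounts. Each runs from 250 bases before the annotated start to 50 bases after it, on the plus strand. Capitals in the Cdk4 promoter (chr10:127063285-127063584) mark the E-box CACGTG, the motif bound by Myc family factors. Capitals in the Cdk6 promoter (chr5:3343643-3343942) mark the TATA box letters TATAAA.
Cdk4: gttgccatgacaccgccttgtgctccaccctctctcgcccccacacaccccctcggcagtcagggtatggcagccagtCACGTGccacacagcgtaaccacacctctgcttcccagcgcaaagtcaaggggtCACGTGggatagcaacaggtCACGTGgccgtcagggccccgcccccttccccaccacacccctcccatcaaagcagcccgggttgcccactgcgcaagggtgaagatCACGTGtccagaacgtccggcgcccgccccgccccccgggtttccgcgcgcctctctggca
Cdk6: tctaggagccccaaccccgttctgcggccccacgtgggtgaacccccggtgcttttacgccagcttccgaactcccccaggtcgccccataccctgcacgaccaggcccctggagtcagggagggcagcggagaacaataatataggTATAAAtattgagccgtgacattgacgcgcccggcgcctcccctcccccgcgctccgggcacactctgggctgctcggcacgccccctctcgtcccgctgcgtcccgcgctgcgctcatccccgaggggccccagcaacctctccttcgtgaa

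The Cdk4 promoter held the E-box 4 times, beginning 172, 118, 98 and 11 bases before the start. Of all 32851 promoters of this length, 7.15% held at least 1 E-box and 8 (0.0244%) held at least 4. The Cdk6 promoter held 1 E-box, 220 bases before the start, and TATAAA 103 bases before it, letters found in 13.6% of promoters on either strand. Letters of an E2F site, TTTNNCGC, occurred once in the Cdk6 promoter and not in that of Cdk4 (5.17% of promoters), and the GC box GGGCGG occurred 3 times in that of Cdk4 and not in that of Cdk6 (35.7%). Both strands were searched and none of these matches overlapped a different motif, although GC boxes lying after the Cdk4 start overlapped each other. The 2 Ccnd3 promoters in the table held neither an E-box nor TATAAA. A match describes letters in the window and says nothing of binding.

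Values are linear array intensities. Differences were taken after adding 18 and taking log2, so those of dim probe sets are understated. One limma model over all 13 samples tested 25881 probe sets that exceeded their own array's median on at least 3 arrays. Of the 19 members, 16 passed this filter. The others were 2 Ccnd3 probe sets and 1 of Cdk6. To be called, a probe set needed at least a 2-fold difference and an adjusted p (Benjamini-Hochberg, over all tested) below 0.05. Because brightness depends on the probes, levels were compared between groups for 1 probe set at a time and never between genes.

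Tumours had far more Ccnd1 and Cdk6 RNA than either normal tissue, whereas Ccnd2 was abundant in both tumours and GNPC and much lower in DBS. Cdk4 followed the order tumours, GNPC, DBS in moderate steps, and Ccnd3 differed least between tumours and either normal tissue. Between tumours and GNPC, 8 of 16 tested member probe sets were higher in tumours and 0 were lower, beside 5.61% of all tested probe sets called higher, 12.6% called lower and 18.3% called in either direction. Between tumours and DBS all 16 were higher, beside 16% called higher, 18.2% lower and 34.2% in either direction. Between GNPC and DBS 12 of 16 were higher in GNPC, beside 9.55% called higher, 7.94% lower and 17.5% in either direction. Tumour and GNPC values did not overlap for 12 of the 16 (40.3% of all probe sets), tumour and DBS values for 16 (52%), and GNPC and DBS values for 13 (52.6%). The median log2 difference of the members was 0.96, 3.35 and 1.73 in these comparisons, beside -0.03, 0.08 and 0.11 over all tested probe sets. The counts against DBS include Ccnd2 1416123_at and 1416124_at, which exceeded the array median on 0 of 4 DBS arrays. They passed the filter only through tumours and GNPC, so their calls against DBS add no support of their own. The 3 comparisons share samples and are not independent.

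**Figure D1:**
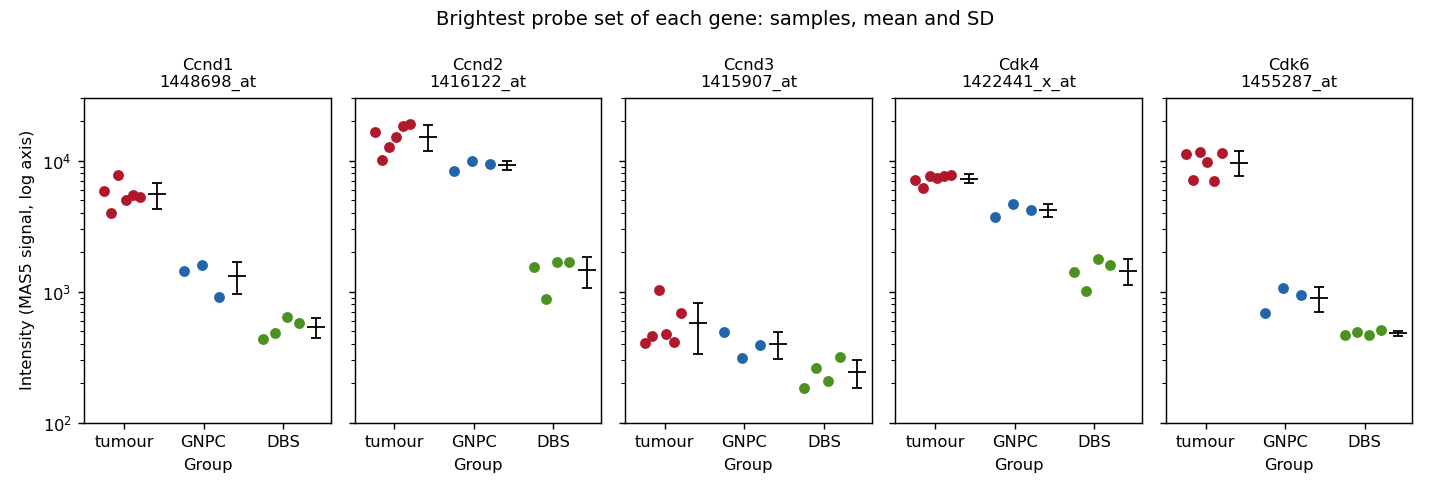
Intensity of the brightest probe set of each gene in every sample (vertical axis, MAS5 signal on a log scale), by group: 6 tumours, 3 GNPC and 4 DBS. Points are samples and the bar beside them is the mean with its SD; heights are not comparable between genes. Tumours lay above both normal tissues with no overlap for Ccnd1, Ccnd2, Cdk4 and Cdk6, and overlapped GNPC for Ccnd3.

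**Figure D2:**
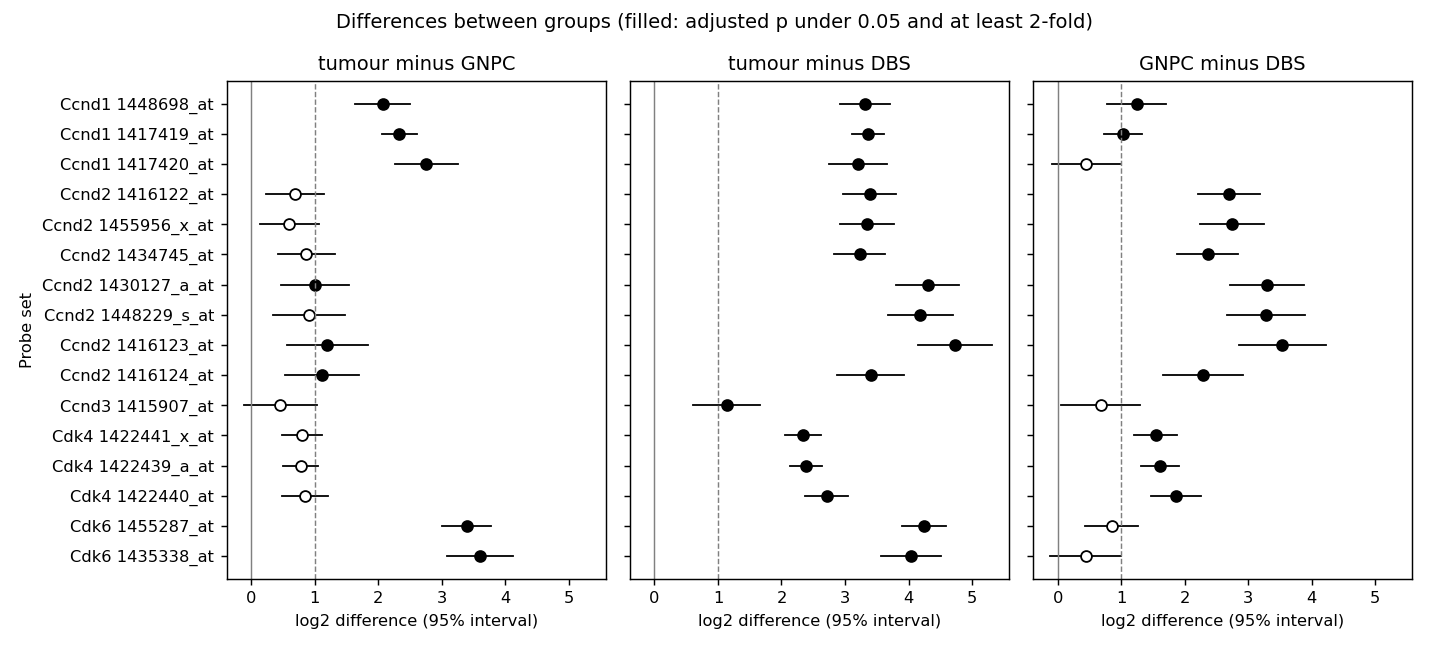
Difference between groups on the log2(value + 18) scale (horizontal axis) with its 95% interval for the 16 member probe sets past the filter; filled points passed the test and the dashed line is the 2-fold minimum. Cdk6 and Ccnd1 stand furthest right between tumours and GNPC, and Ccnd2 stands furthest right between GNPC and DBS.

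Ccnd1 encodes the D-type cyclin most often overproduced in cancers. Its brightest probe set, 1448698_at, read 5809.8, 3982.1, 7723, 5001.2, 5422.5 and 5251.6 in tumours 1 to 6. GNPC 1 to 3 read 1448.6, 1583 and 910, and DBS 1 to 4 read 435.9, 482.5, 646.1 and 578. The lowest tumour stood above the highest GNPC sample, and the lowest GNPC sample above the highest DBS sample. In the limma fit Ccnd1 was 4.20-fold higher in tumours than in GNPC (5532 ± 1237, SD, n = 6, in tumours and 1314 ± 356, SD, n = 3, in GNPC; limma adjusted p = 2.78e-06).

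The other Ccnd1 probe sets gave 5.04-fold (1417419_at) and 6.76-fold (1417420_at) for tumours over GNPC, with 95% intervals of the log2 difference from 2.06 to 2.61 and from 2.26 to 3.25. Over DBS the 3 probe sets gave 9.19-fold to 10.3-fold. The step from DBS to GNPC was smaller and less certain. It was called by 1448698_at (2.37-fold, limma adjusted p = 0.000428) and by 1417419_at (2.04-fold), but not by 1417420_at (log2 difference 0.44 ± 0.25 SE), whose GNPC and DBS values overlapped. The call of 1417419_at fell just under the 2-fold minimum without GNPC 2 (0.94), without DBS 2 (0.95), with a pseudocount of 64 (0.93) and with both other scalings (0.91 and 0.93).

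Ccnd2 encodes the D-type cyclin that granule neuron precursors use most prominently. Its brightest probe set, 1416122_at, read 16532, 10063.9, 12635.9, 14977.2, 18326.3 and 18871.1 in tumours 1 to 6. It read 8353.2, 9892.6 and 9395.5 in GNPC, and 1550.4, 883.7, 1694.2 and 1677.7 in DBS. All tumour and GNPC samples were several times above every DBS sample, while tumour 2 stood barely above the highest GNPC sample. The difference was 6.47-fold between GNPC and DBS (limma adjusted p = 6.54e-07) and 10.5-fold between tumours and DBS. Between tumours and GNPC it was 1.62-fold (log2 difference 0.69 ± 0.21 SE, limma adjusted p = 0.0159), short of the 2-fold minimum.

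All 7 Ccnd2 probe sets were called higher in GNPC than in DBS, by 4.87-fold to 11.6-fold, and in tumours than in DBS, by 9.38-fold to 26.6-fold. Of these, 1416123_at and 1416124_at passed the filter only through tumours and GNPC. The others gave 5.14-fold to 9.81-fold for GNPC and 9.38-fold to 19.7-fold for tumours. Between tumours and GNPC the log2 differences ran from 0.60 to 1.19 and all 7 had an adjusted p of at most 0.038, but 3 passed the 2-fold minimum. These were 1430127_a_at (just past 2-fold), 1416123_at (2.29-fold) and 1416124_at (2.17-fold). For 3 others (1455956_x_at, 1434745_at and 1448229_s_at) tumour and GNPC values overlapped. Which probe sets pass depends on single samples and on the processing. The call of 1430127_a_at was lost without tumour 1, tumour 5, tumour 6 or GNPC 1 (0.91, 0.91, 0.92 and 0.88), and that of 1416124_at without GNPC 1 (0.92). A pseudocount of 64 lost both calls (0.995 and 0.93), and quantile normalization that of 1430127_a_at (0.90). Without tumour 2, 1434745_at and 1448229_s_at were called (1.01 and 1.06).

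The widest difference of Ccnd2 came from a probe set that was dim in DBS. Probe set 1416123_at averaged 67.1 ± 15.4 (SD, n = 4) in DBS and gave the 26.6-fold difference. Probe set 1416124_at was near background in DBS (3.7, 15.6, 28.8 and 15.1), so its 10.6-fold depends on the pseudocount, and its log2 difference ran from 2.30 to 4.55 over the alternatives tried.

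Ccnd3 encodes the D-type cyclin best known in blood cells and muscle. Probe set 1415907_at read 406.9, 462.3, 1027, 475.6, 415.4 and 689.5 in tumours 1 to 6, 494.1, 310.8 and 392.3 in GNPC, and 184.2, 262, 208.7 and 319.2 in DBS. Tumour 3 stood highest, and 4 of the 6 tumours lay below GNPC 1. Ccnd3 was 2.20-fold higher in tumours than in DBS (limma adjusted p = 0.000815), a call that was lost without tumour 3 (log2 difference 0.96). It did not pass between tumours and GNPC (log2 difference 0.46, 95% interval from -0.12 to 1.03) or between GNPC and DBS (0.68, from 0.06 to 1.30, limma adjusted p = 0.0752). The remaining Ccnd3 probe sets, 1438805_at and 1444323_at, stayed between 14.1 and 92.7 in all 13 samples and did not pass in a fit without the filter (log2 differences from -0.69 to 0.75).

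Cdk6 encodes the kinase partner with the widest difference. Probe set 1455287_at read 11140.2, 7120, 11514, 9752.2, 7009.6 and 11373.9 in tumours 1 to 6. It read 686.6, 1063.5 and 939.6 in GNPC, and 469.8, 488.2, 463.7 and 507.8 in DBS. The lowest tumour was several times above the highest normal sample. Cdk6 was 10.5-fold higher in tumours than in GNPC (9652 ± 2100, SD, n = 6, in tumours and 897 ± 192, SD, n = 3, in GNPC; limma adjusted p = 2.78e-08) and 18.9-fold higher than in DBS (482 ± 19.9, SD, n = 4).

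The second bright Cdk6 probe set, 1435338_at, gave 12.1-fold over GNPC and a log2 difference of 4.04 over DBS. In a fit without the filter the dim probe set 1460291_at, at 61.5 to 121.5 in tumours and at most 27.8 in normal samples, was also called higher in tumours (log2 differences 2.16 and 1.93). All 3 GNPC values of this probe set lay below the added 18, so its differences are understated. Between GNPC and DBS neither bright probe set was called. The log2 differences were 0.85 (limma adjusted p = 0.00301, groups not overlapping) and 0.44 (0.192, groups overlapping). Without GNPC 1 the first was 1.03 and was called.

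Cdk4 encodes the kinase partner present in most dividing cells. Its brightest probe set, 1422441_x_at, read 7103.1, 6166.7, 7677.2, 7352.5, 7597.3 and 7694.3 in tumours 1 to 6. GNPC read 3696.3, 4668.3 and 4186.4, and DBS 1417.1, 1010, 1763.2 and 1595.4. The groups did not overlap on any of the 3 Cdk4 probe sets. Tumours exceeded GNPC by 1.72-fold to 1.80-fold (limma adjusted p from 0.000214 to 0.00109), short of the 2-fold minimum. Tumours exceeded DBS by 5.06-fold to 6.56-fold and GNPC exceeded DBS by 2.92-fold to 3.64-fold, all called.

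Differences between tumours and GNPC depend on how arrays are scaled. When arrays were instead brought to 1 common median, the median log2 difference over all probe sets went from -0.03 to 0.19, and the share of calls that were higher in tumours from 30.8% to 49.7%. All 3 Cdk4 probe sets (1.02 to 1.09) and the Ccnd2 probe sets 1434745_at and 1448229_s_at (1.11 and 1.15) were then called, and 13 of 16 members passed, beside 4992 of all 25881 probe sets. Quantile normalization moved the count the other way, to 7 of 16, beside 4674 of all 25881 probe sets. The median over all probe sets was then 0.06, and 38.9% of calls were higher in tumours. Bringing arrays to 1 common median moved the median between tumours and DBS from 0.08 to 0.20, and between GNPC and DBS from 0.11 to 0.00. No member changed direction in any comparison under the scalings tried.

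Whether 2 members changed unequally was tested on the balance within a sample, the log2 value of 1 gene's brightest probe set minus that of another, which does not depend on the scaling beyond the pseudocount. The 9 tests (3 balances, 3 comparisons) were two-sided exact permutation tests with Benjamini-Hochberg adjustment over the 9. The level of a balance has no meaning of its own, since it compares 2 probe sets, and only its difference between groups was read.

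The balance of Ccnd1 to Ccnd2 shifted toward Ccnd1 in tumours compared with GNPC. It ran from -1.84 to -0.71 in tumours and from -3.34 to -2.51 in GNPC, a difference of 1.37, or 2.59-fold (exact permutation p = 0.0119, the smallest 6 against 3 can give; adjusted 0.0214). It was lower in GNPC than in DBS by 2.73-fold (exact permutation p = 0.0286, the smallest 3 against 4 can give; adjusted 0.0429). Tumours and DBS overlapped (difference -0.08, exact permutation p = 0.771). Tumour and DBS samples thus had overlapping balances at very different levels of both cyclins.

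The balance of Ccnd1 to Ccnd3 was higher in tumours than in GNPC (by 3.05-fold, exact permutation p = 0.0119, adjusted 0.0214) and than in DBS (by 4.52-fold, exact permutation p = 0.00476, the smallest 6 against 4 can give, adjusted 0.0214). GNPC and DBS overlapped in this balance (difference 0.57, exact permutation p = 0.171, adjusted 0.193).

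Between the kinases, Cdk6 gained on Cdk4 in tumours. The balance of Cdk6 to Cdk4 ran from -0.12 to 0.65 in tumours, while GNPC held -2.40 to -2.12 and DBS -1.89 to -1.02. Tumours differed by 6.05-fold from GNPC (exact permutation p = 0.0119, adjusted 0.0214) and by 3.74-fold from DBS (exact permutation p = 0.00476, adjusted 0.0214). Between GNPC and DBS the difference of -0.70 did not pass (exact permutation p = 0.0571, adjusted 0.0735). With the mean of all probe sets of each gene it was -1.03 and passed (exact permutation, adjusted 0.0367). Leaving out any 1 of the 3 GNPC samples brought the adjusted p of all 3 balances between tumours and GNPC to 0.0643, with the exact permutation p at the smallest that design gives, 0.0357, and that of Ccnd1 to Ccnd2 between GNPC and DBS no longer passed without any 1 of its samples, with differences from -1.61 to -1.19.

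**Figure D3:**
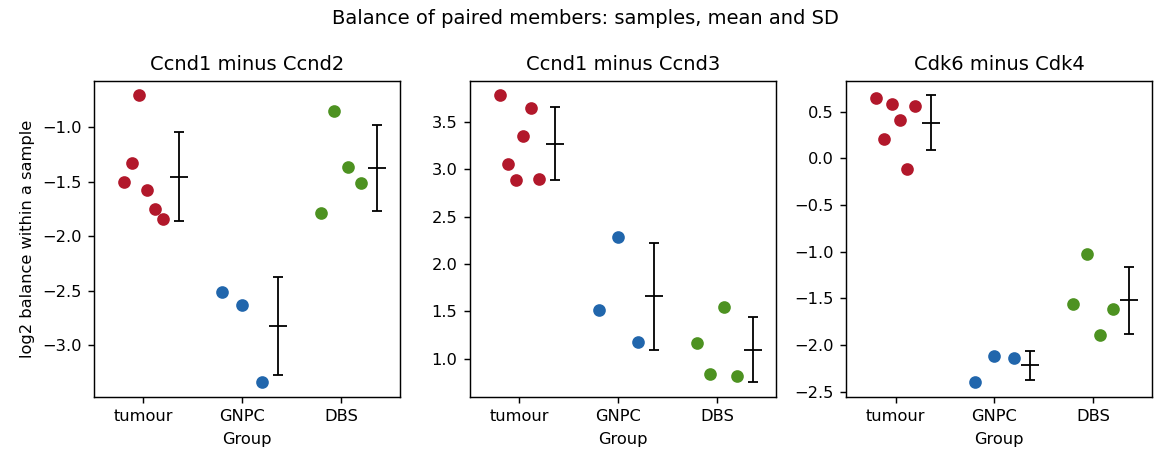
Balance of pairs of members within each sample (vertical axis, difference of log2 values of the brightest probe sets), with the mean and SD of each group beside the points. Tumours lie above GNPC in all 3 panels; DBS overlaps the tumours for Ccnd1 against Ccnd2 only.

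Among the tumours, Ccnd2 varied more than Cdk4. The SD of the log2 values over 6 tumours was 0.35 to 0.64 for the 7 Ccnd2 probe sets and 0.12 to 0.18 for those of Cdk4, beside a median of 0.28 over all tested probe sets. Tumour 2 had the lowest value on 6 of 7 Ccnd2 probe sets and on all 3 of Cdk4. On 1455956_x_at it read 7434.6 where the others read 11109.6 to 17079.3, and on 1416123_at it read 1177 where the others read 1639.4 to 3709.5.

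Cdk6 was lowest in tumours 2 and 5 on both bright probe sets. On 1435338_at these read 4740.7 and 4743.2, and the other tumours 6754.5 to 8825.2. The 3 Ccnd1 probe sets disagreed about tumour 2, which was lowest on 1448698_at (3982.1) and highest on 1417420_at (3959.4, others 1655.9 to 2807.5). The order of single tumours in Ccnd1 therefore rests on the probe set, while every tumour exceeded every normal sample on all 3.

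**Figure D4:**
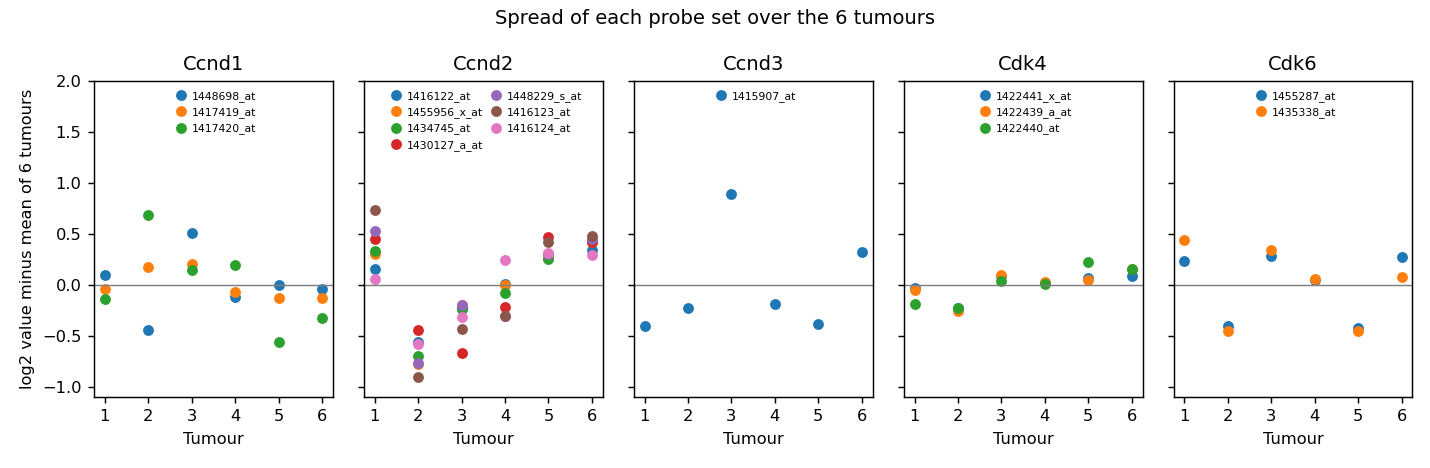
Deviation of each tumour from the mean of the 6 tumours on the log2(value + 18) scale (vertical axis) for every member probe set past the filter, 1 colour per probe set within a gene. Tumour 2 is lowest on 6 of 7 Ccnd2 probe sets and all 3 Cdk4 probe sets, tumours 2 and 5 are low in Cdk6, and the Ccnd1 probe sets scatter in tumour 2.

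Other cell types moved with these groups. The summed intensity of 5 measured Purkinje cell markers was 30556 to 37556 in GNPC and 374.1 to 10399 in tumours, with tumour 2 highest (the others at most 3782.6). Markers of cerebellar interneurons (4 of 4 measured) summed to 12256 to 16787 in GNPC and 305.1 to 7120.4 in tumours, those of astrocytes and Bergmann glia (6 of 6) to 24727 to 25599 and 5967.6 to 15221, and those of oligodendrocytes (5 of 6) to 16602 to 30892 and 7566.8 to 16289. GNPC thus held bright neuronal and glial markers beside those of granule precursors. Of the tested astrocyte and Bergmann glia genes 4 of 6 were lower in tumours than in GNPC, and of the oligodendrocyte genes 3 of 5. S100b (log2 difference 0.57) and Olig1 (0.72) leaned the other way without passing. Markers of differentiated neurons (6 of 6 measured) summed to 11912 to 22810 in tumours, again with tumour 2 highest, against 35587 to 38374 in GNPC and 63423 to 72058 in DBS. Proliferation markers (5 of 6 measured) summed to 39591 to 48650 in tumours, lowest in tumour 2, while GNPC reached 18744 to 24308 and DBS 3871.6 to 6514.2. Macrophage markers (7 of 7 measured) summed to 5317.9 to 16140 in tumours and at most 5100.7 in normal samples. Much of that came from Lyz2, which averaged 4947 in tumours and 243 in GNPC. Of 6 tested macrophage genes 4 were higher in tumours than in GNPC, while Csf1r and Cx3cr1 did not pass (log2 differences -0.32 and -0.29). Single markers in this paragraph were named after their values were seen. The part of these cell types in the differences of the members was not tested. In these bulk samples fewer cells of a type and less RNA per cell cannot be told apart.

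Ptch1, the gene altered in the tumours, read 3453.7 to 11575 in tumours, 5563.3 to 6972.4 in GNPC and 5569.3 to 6133.5 in DBS on the brightest of its 3 probe sets. Whether that probe set lies in the altered part is not given in the sources used here, so it does not check the labels. Granule precursor markers (7 of 7 measured) summed to 40281 to 46165 in tumours and GNPC and to at most 19927 in DBS, but the members of the list differed. Zic1, among the brightest, averaged 19704 in tumours, 20141 in GNPC and 15335 in DBS and did not pass in any comparison, whereas Atoh1 was 8.07-fold and Cxcr4 2.93-fold higher in tumours than in GNPC. Of the 7 tested genes these 2 were called higher and 0 lower, with a median log2 difference of -0.03. Barhl1 (0.98) leaned higher in tumours, and Neurod1 (-0.65) and Pax6 (-0.64) lower, without passing. Single granule precursor genes were named after their values were seen. Hox genes of the hindbrain (6 of 6 measured) summed to at least 15670 in DBS and at most 871.9 elsewhere. Endothelial and meningeal markers were lower in tumours than in GNPC for 3 of 5 and 4 of 5 tested genes. Lymphocyte markers stayed at or under 237.1 in sum, and 0 markers were listed at 0. RNA quality was read from the array's control genes, as the log2 of their 3' signal over their 5' signal. It was 1.39 ± 0.0986 (SD, n = 6) in tumours, 1.16 ± 0.0453 (SD, n = 3) in GNPC and 1.75 ± 0.497 (SD, n = 4) in DBS. Its part was not tested either.

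Around the members, the pathway was followed with 40 other genes in 9 lists, of which 37 were tested by their brightest probe sets. Between tumours and GNPC 12 were higher and 1 lower in tumours, between tumours and DBS 17 and 2, and between GNPC and DBS 15 were higher and 2 lower in GNPC. Over all 12260 genes read by their brightest probe set, 809 were higher and 1740 lower between tumours and GNPC, 1896 and 2553 between tumours and DBS, and 1071 and 1184 between GNPC and DBS. The median log2 differences of the pathway genes were 0.40, 0.69 and 0.82, beside -0.03, 0.0030 and 0.04 over those 12260. The counts include Gli1 and E2f1 against DBS, and Cdkn2b between tumours and GNPC. Gli1 and E2f1 in DBS, and Cdkn2b in GNPC, read below the lowest array median (91.4). They did not pass the filter through those groups, so these calls add no support of their own.

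Upstream, all 4 hedgehog inputs were higher in tumours than in GNPC. Gli1, a hedgehog-activated transcription factor, rose 5.94-fold (limma adjusted p = 3.19e-07), from 123 ± 8.76 in GNPC to 821 ± 82.4 in tumours. Mycn was 3.04-fold and Gli2 2.41-fold higher. Myc was 2.90-fold higher than in GNPC, but its difference from DBS did not pass (1.14-fold), and GNPC had less Myc than DBS (2.54-fold).

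Of the inhibitors, Cdkn2b, an INK4 protein, was 7.06-fold higher in tumours than in GNPC and 3.99-fold higher than in DBS. In GNPC it read 31.9 to 74.1, below the lowest array median (91.4), and did not pass the filter through that group. The size of the 7.06-fold therefore depends on the pseudocount, and that call adds no support of its own. The INK4 gene Cdkn2c ranged from 49.1 to 3905.4 among tumours and did not pass in any comparison. Cdkn2d did not pass either (log2 differences -0.11 against GNPC and 0.16 against DBS). Cdkn2a was below the filter, at 85.3 ± 44.4 in tumours and 18.7 ± 7.71 in GNPC. In the CIP/KIP family, which binds cyclin-kinase complexes, Cdkn1b was 2.84-fold higher in tumours than in GNPC and Cdkn1c 2.83-fold lower, while Cdkn1a did not pass (log2 difference 0.56). Cdkn1c varied widely among tumours (263 to 2832.9) and overlapped GNPC (1761.4 to 1994.7; limma adjusted p = 0.0303).

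Among the substrates, Rbl1 was higher in tumours than in GNPC (2.17-fold) and in DBS (4.23-fold), and Rb1 (log2 differences 0.26 and 0.23) and Rbl2 (0.10 and 0.02) did not pass. Of 7 tested E2F factors 2 were higher in tumours than in GNPC, E2f8 (3.02-fold) and E2f1 (2.32-fold), and 5 were higher than in DBS, led by E2f1 (21.8-fold), E2f8 (20.9-fold) and E2f2 (5.68-fold). E2f1 read 13.7 to 59.4 in DBS, below the lowest array median (91.4), so the size of its 21.8-fold depends on the pseudocount. E2f4 was below the filter.

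Downstream, 3 of 6 genes of the next steps, mostly cyclins and kinases, were higher in tumours than in GNPC, and 5 of 6 higher than in DBS. Cdk1, the kinase of mitotic entry, was 2.80-fold, Ccne2, a cyclin E, 2.43-fold and Ccna2, cyclin A, 2.15-fold higher than in GNPC. Ccne1, named after its values were seen, was the gene that did not pass against DBS (log2 difference 0.16). The 3 subunits of the CDK-activating kinase (Cdk7, Ccnh and Mnat1) had log2 differences between -0.23 and 0.36 in the 3 comparisons and did not pass.

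The 6 genes of cyclin D turnover differed between tumours and GNPC by less than 2-fold each, from a log2 difference of -0.66 for Gsk3b to 0.84 for Cryab, genes named after their values were seen. Against DBS Cryab was 5.12-fold higher and Fbxo31, an F-box protein of cyclin D degradation, 2.50-fold lower. The chaperones Cdc37 and Hsp90aa1, which fold these kinases, did not pass in any comparison.

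**Figure D5:**
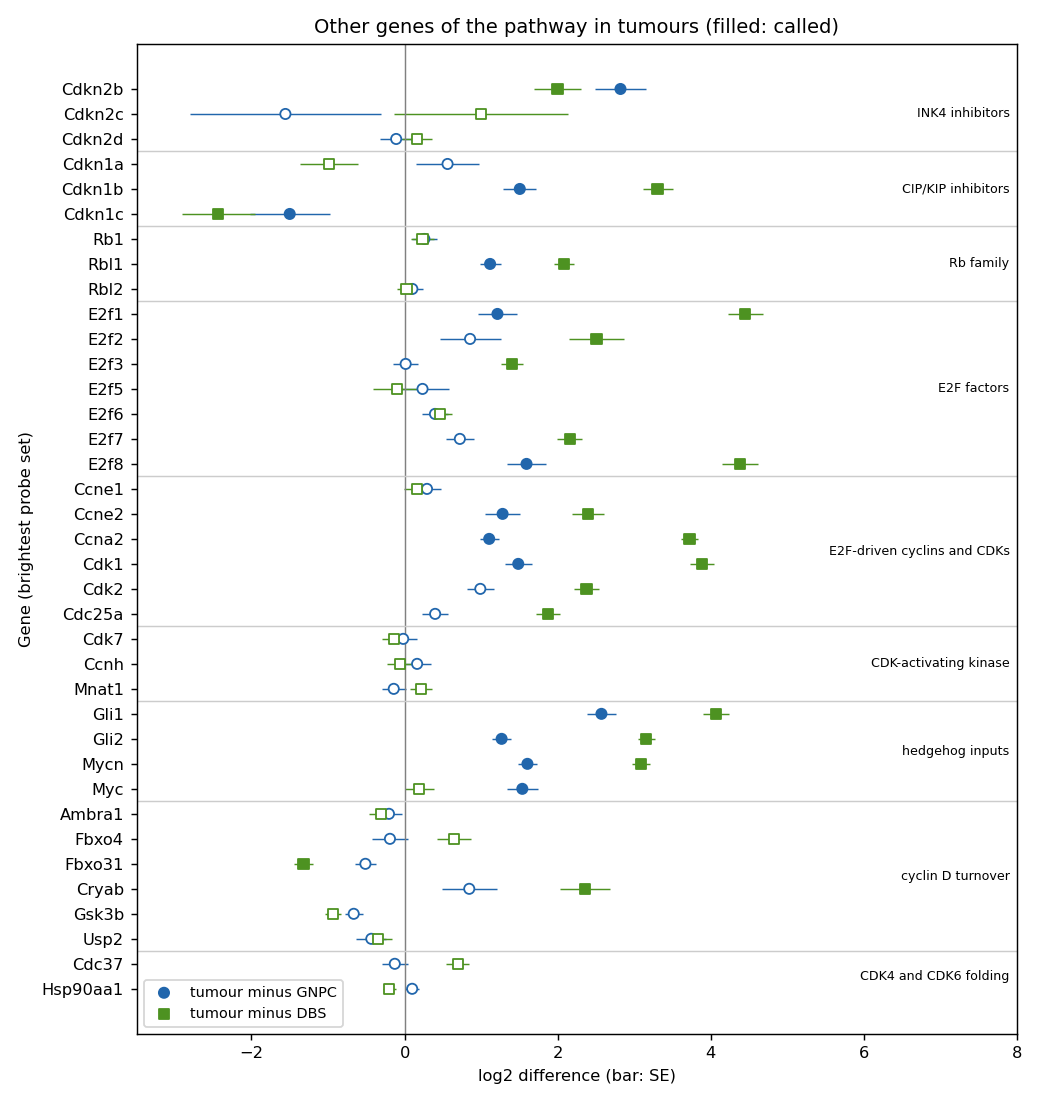
Log2 difference of tumours from GNPC (circles) and from DBS (squares) for the 37 tested pathway genes (horizontal axis, bars are SE), by list; filled symbols passed the test. Filled circles mark all 4 hedgehog inputs, 2 of 7 E2F factors and 3 of 6 downstream genes, filled squares 3 of 4, 5 of 7 and 5 of 6, and the CDK-activating kinase has open symbols only.

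For each member the 3 genes with the most similar profile were found among 12259 others by the root mean square difference of log2 values centred over the 13 samples, a description that mostly follows the group means. Nearest to Ccnd1 were Chek1 (0.32), Lap3 (0.33) and the hedgehog co-receptor Boc (0.33). Nearest to Ccnd2 were Knstrn (0.24), Cdca7l (0.26) and Rcc2 (0.27). Nearest to Cdk4 were Tex30 (0.15), Tgif2 (0.16) and Rnaseh2b (0.16).

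Nearest to Cdk6 were the hexokinase Hk2 (0.31), Lrig3 (0.34) and the transcription factor Sox18 (0.45). Hk2 averaged 7300 ± 2413 in tumours, 622 ± 165 in GNPC and 358 ± 58.9 in DBS, and Sox18 averaged 3356 ± 244, 289.6 ± 80.3 and 241 ± 30.8. Nearest to Ccnd3 were Lima1 (0.26), Arsk (0.27) and Tank (0.28). Between members the smallest such difference was that of Ccnd2 and Cdk4 (0.53) and the largest that of Ccnd3 and Cdk6 (1.56).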

How the data were processed

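RNA of 13 mouse samples was read on 1 Affymetrix array each. The values the authors deposited are linear intensities, and the submitters' processing notes name MAS5 without saying what it was used for. With 2% of values trimmed from both ends, array means lie between 500.002 and 500.003, as after scaling to a common target. Low values are unstable. Array medians ran from 91.4 to 117.7, and precision is limited by how few arrays there are. Gene symbols are those of the platform annotation. No batch is labelled, and one that followed the groups cannot be told apart from them.

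Log2(value + 18) was tested with limma 3.58.1 in R 4.3.3 (eBayes, trend on; 10 residual and 4.81 prior degrees of freedom). The added 18 is near the 20th percentile of all values (18.2). Intervals are 95% confidence intervals of that fit. The script was tested on simulated data. Sample numbers only name samples. Genes named were all members, at most 3 called genes of a pathway list with the largest differences (every gene of a list of 5 or fewer) and the 3 nearest profiles of each member, with exceptions stated. Members and lists were chosen with earlier results of these data known. Alternatives were other pseudocounts, filters, scalings, probe set choices and fits, a floor of 50, and each sample left out.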

Additional observations from a re-analysis of the deposited data

Results flagged for a closer look

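Each group of 6 tumours or 4 DBS samples was examined for a sample far from its neighbours on each of the 16 member probe sets (32 groups, of which chance flags about 1 in 20). On Ccnd2 1416122_at, DBS 2 read 883.7 and the other DBS samples 1550.4 to 1694.2, and the gap was 0.863 of the range of log2 values. On Cdk4 1422441_x_at, tumour 2 read 6166.7 and the other tumours 7103.1 to 7694.3, a gap of 0.639 of the range.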

How the results depend on the processing

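No paired analysis was made, since each sample came from a different mouse and the labels name no pairs. No member probe set past the filter changed direction under any alternative. Of 1062 recomputed differences 1040 kept their direction and call, 14 fell below the call and 8 rose to it. Many of these could not change direction. Other filters, probe set choices and fits, and leaving out a sample of the group not compared, return the same log2 difference and alter only its p. The count of 1040 therefore overstates how far stability was tried. With 1 probe set per gene the number of members called was 2 of 5 between tumours and GNPC, 5 of 5 between tumours and DBS and 3 of 5 between GNPC and DBS, since fewer probe sets were counted. Of all 12260 genes 2549, 4449 and 2255 were then called. Scaling all arrays to 1 median gave 13 of 16 called between tumours and GNPC, while quantile normalization gave 7 and a pseudocount of 64 gave 6, against 8 as reported. Over all 25881 probe sets the calls were 4992, 4674 and 3593 in these settings, against 4725, so the total moved too. Leaving out 1 sample gave 6 to 10, 15 to 16 and 11 to 13 called in the 3 comparisons. Over all tested probe sets it gave 4206 to 4989, 8597 to 8954 and 4029 to 4672 calls. With 1 GNPC sample left out, the balances of tumours against GNPC (Ccnd1 to Ccnd2 1.12 to 1.53, Ccnd1 to Ccnd3 1.37 to 1.92, Cdk6 to Cdk4 2.51 to 2.65) all had an adjusted p of 0.0643 with the exact permutation p at its smallest, 0.0357. The balance of Ccnd1 to Ccnd2 between GNPC and DBS ran from -1.61 to -1.19 with any 1 of their samples left out, where the design cannot pass the threshold, and that between tumours and DBS, which did not pass, ran from -0.22 and turned to 0.0021 without tumour 6 and 0.10 without DBS 2. With any 1 tumour or GNPC sample left out the Cdk6 to Cdk4 balance of tumours against GNPC reached at most 2.70. The Cdk6 to Cdk4 balance of GNPC against DBS passed at -1.03 with the mean of all probe sets.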
